A study of Mus musculus with 6 samples.

Results

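The genes described here are 10 genes of white and brown fat, Ucp1, Cidea, Fabp4, Car3, Adipoq, Plin1, Plin4, Cfd, Lpl and Cidec, measured in kidney RNA. They were taken by symbol from the deposited table of 23396 genes, and all 10 were found. The list was chosen by fragment counts and FPKM of these 6 libraries that were already known, so the library in which a gene stands high is given as a description, with no test. The kidneys came from 3 mice of the strain C57BL/6N-Far2tm2a(KOMP)Wtsi/2J, homozygous for a targeted Far2 allele (knockout, KO), and 3 C57BL/6N mice (wild type, WT). All 6 mice were males aged 6 months, and total RNA was made from the frozen right kidney after which ribosomal RNA was depleted. Far2 encodes a fatty acyl-CoA reductase, an enzyme that makes fatty alcohols.

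White adipocytes store triglyceride in a large single droplet and release hormones and enzymes into the blood, whereas brown adipocytes hold many small droplets and burn fatty acids for heat through the mitochondrial protein UCP1. The mouse kidney lies in a pad of perirenal fat that can hold both cell types, and the fat at the hilum surrounds the vessels that enter the organ. Some genes used as fat markers are also expressed by kidney cells: lipoprotein lipase by tubular cells in the mouse, and FABP4 by capillary endothelium. In whole-organ RNA, fewer cells of a type and less RNA per cell cannot be told apart.

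The libraries of each group carry the numbers 0, 1 and 2 in the deposited table, and these numbers name no mouse. Summed over genes, the fragments came to 17611808, 15261362 and 18650250 in KO, against 19668170, 20631158 and 15843179 in WT. Far2 itself had 1.59, 1.26 and 1.67 CPM (fragments scaled to a common library total) in the KO libraries, against 1.98, 1.90 and 1.43 CPM in the WT libraries. These values overlap, so the whole-gene count of Far2 did not separate the groups and the genotypes rest on the labels. The kidney identity of the libraries showed in the summed level of the 14 nephron genes examined. It ran from 37764 to 40470 CPM in KO and from 33505 to 39725 CPM in WT libraries. The sum does not weigh the 14 genes alike. Kap, the most abundant, averaged 38687 FPKM (a level per length of transcript) over the 6 libraries, against 1276.5 FPKM for Slc34a1, the next.

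The bases upstream of the genes are shown for Ucp1, Adipoq and Plin1, which stood highest in KO library 2 by a wide margin, and for Plin4, which did not. Each line gives the 250 bases before the RefSeq start, 5′ to 3′ on the gene's strand, from the RefSeq table for GRCm38.p6. Capitals mark AGGTCA (the half-site of nuclear receptors), CCAAT or TATAA, each searched on both strands, so that a CCAAT on the other strand reads ATTGG. The windows are chr8:83290098-83290347 (+) for Ucp1, chr16:23146286-23146535 (+) for Adipoq, chr7:79732777-79733026 (-) for Plin1 and chr17:56109783-56110032 (-) for Plin4.
Ucp1: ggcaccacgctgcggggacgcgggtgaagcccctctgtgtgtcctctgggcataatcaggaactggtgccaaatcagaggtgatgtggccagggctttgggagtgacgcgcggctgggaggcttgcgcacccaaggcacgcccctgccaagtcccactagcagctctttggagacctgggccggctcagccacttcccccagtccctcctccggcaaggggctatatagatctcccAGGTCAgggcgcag
Adipoq: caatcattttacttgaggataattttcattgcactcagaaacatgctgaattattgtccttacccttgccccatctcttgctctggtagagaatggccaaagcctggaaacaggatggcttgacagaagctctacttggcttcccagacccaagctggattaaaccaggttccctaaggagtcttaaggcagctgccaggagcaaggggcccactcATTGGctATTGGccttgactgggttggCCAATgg
Plin1: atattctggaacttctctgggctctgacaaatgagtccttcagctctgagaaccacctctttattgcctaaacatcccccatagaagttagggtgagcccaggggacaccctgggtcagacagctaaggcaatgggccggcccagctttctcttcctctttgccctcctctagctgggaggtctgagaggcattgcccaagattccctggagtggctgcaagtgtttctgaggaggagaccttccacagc
Plin4: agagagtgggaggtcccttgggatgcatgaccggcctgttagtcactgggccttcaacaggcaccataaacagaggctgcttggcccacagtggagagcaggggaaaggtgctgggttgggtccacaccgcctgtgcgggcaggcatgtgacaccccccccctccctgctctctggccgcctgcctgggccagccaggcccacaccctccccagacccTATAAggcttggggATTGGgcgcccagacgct

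The Ucp1 window held 1 AGGTCA, whose first base lies at -14 from the start. The Adipoq window held 3 CCAAT matches, at -34, -27 and -7. Plin4 had a TATAA at -32 and a CCAAT at -18, with no overlap between them, and the Plin1 window held none of these letters. Of 32851 RefSeq windows of the same length, 14.0% held AGGTCA, 33.9% held CCAAT and 22.8% held TATAA, so each motif is common and no motif was shared by the genes that stood high in KO library 2. A match is a run of letters and was not tested as a binding site. The RefSeq table gave windows for 6 of the 10 genes, the other two being Cfd and Cidec, whose windows held none of the 3 motifs.

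The levels of these genes spanned a wide range. On the scale of FPKM, a level per length of transcript that allows genes to be compared, Lpl averaged 135 ± 26.2 in KO and 111 ± 58.5 in WT libraries (SD, n = 3 each, as in the next sentences). Fabp4 averaged 68.5 ± 7.92 in KO and 48.4 ± 8.23 in WT, and Car3 averaged 24.4 ± 4.20 in KO and 17.5 ± 1.11 in WT. Ucp1, at 4.91 ± 7.05 in KO and 1.34 ± 1.17 in WT, and Cfd, at 3.92 ± 2.82 in KO and 1.34 ± 0.999 in WT, came next. Cidea, Plin4, Adipoq, Cidec and Plin1 averaged between 0.423 and 1.28 FPKM in KO and between 0.244 and 0.861 FPKM in WT. Most genes of the mature adipocyte were thus present at a low level, next to abundant Lpl, Fabp4 and Car3.

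Ucp1 encodes the uncoupling protein of brown adipocytes, which lets protons back into the mitochondrial matrix so that respiration gives heat. The gene lies at chr8:83290352-83298452 (+) in mm10 and has 6 exons. It had 29, 16 and 391 fragments in the KO libraries, against 81, 8 and 32 in the WT libraries. In CPM this was 1.65, 1.06 and 21.1 in KO and 4.02, 0.379 and 2.08 in WT. KO library 2 stood alone, 5.24 times the next library (WT library 0) and 12.8 times the median of the other 5. Its exact Poisson 95% interval, which covers counting error only, ran from 19.0 to 23.3 CPM and lay wholly above that of WT library 0. WT library 0, with an interval that began at 3.19 CPM, in turn lay above WT library 2, whose interval was 1.42 to 2.93 CPM, whereas the intervals of WT library 2, KO library 0 and KO library 1 overlapped. The other KO libraries lay within the range of the WT libraries, and WT library 1 was the lowest of the 6.

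Cidea encodes a lipid droplet protein of the CIDE family that is abundant in brown fat of mice, where it promotes the growth of droplets. It had 9, 2 and 79 fragments in the KO libraries, against 10, 5 and 13 in the WT libraries. KO library 2 was again alone, at 4.26 CPM, 5.05 times the next library and 8.58 times the median of the other 5. These counts were too low for the filter on low counts, so Cidea was not among the genes tested. The deposited locus of Cidea overlaps 1 other gene.

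**Figure D1:**
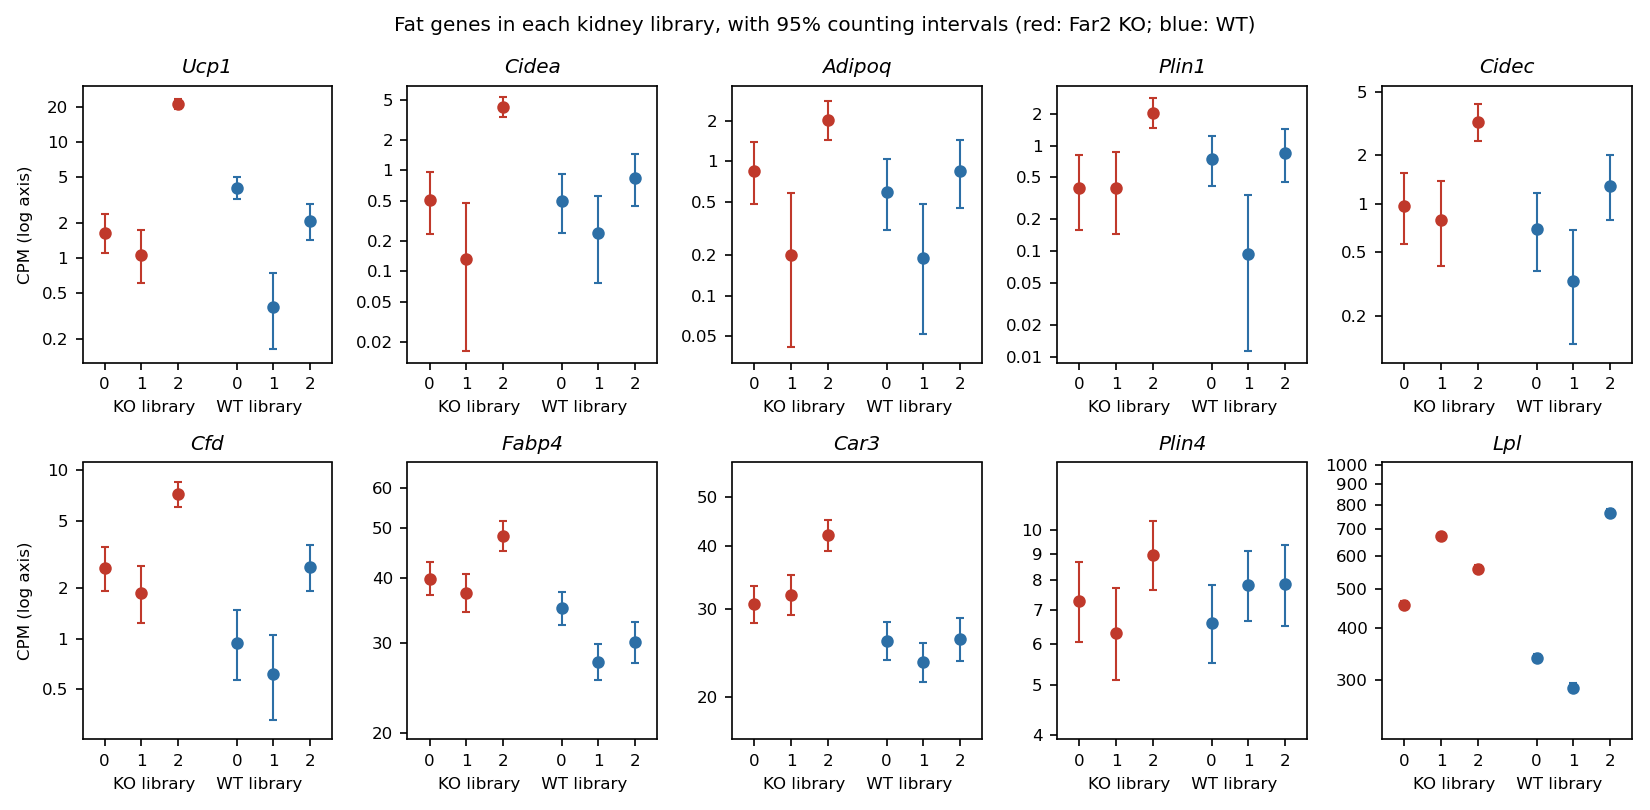
CPM (log axis) of each of the 10 genes in the 3 Far2 KO libraries (red, left) and the 3 WT libraries (blue, right), with 95% Poisson intervals that cover counting error only. KO library 2 is the highest library for 9 of the 10 genes, by 5.24 times for Ucp1 and 1.14 times for Plin4, and Lpl is highest in WT library 2.

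Adipoq, Plin1, Cidec and Cfd showed the same library as the highest, by a smaller margin. Adipoq encodes adiponectin, a hormone that adipocytes secrete and that raises insulin sensitivity, and lies at chr16:23146536-23158028 (+). It had 15, 3 and 38 fragments in KO, against 12, 4 and 13 in WT. At 2.05 CPM, KO library 2 was 2.40 times the next library, KO library 0. The other 5 libraries lay between 0.190 and 0.854 CPM, and the 2 lowest were KO library 1 and WT library 1.

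Plin1 encodes perilipin 1, which coats the fat droplet and restrains its lipases, and lies at chr7:79720218-79732903 (-) with 9 exons in its longest transcript. Its fragments were 7, 6 and 38 in KO, against 15, 2 and 13 in WT. KO library 2 was 2.43 times the next library, WT library 2. Both other KO libraries, at 0.399 CPM each, lay below WT libraries 0 and 2, at 0.744 and 0.844 CPM.

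Cidec, a member of the CIDE family that drives the fusion of droplets into a single large one, lies at chr6:113424634-113435760 (-). It had 17, 12 and 60 fragments in KO, against 14, 7 and 20 in WT. KO library 2 was 2.49 times the next library and 4.06 times the median of the other 5. The intervals of the other 5 libraries overlapped from one neighbour in the order to the next.

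Cfd encodes adipsin (complement factor D), a serine protease secreted by adipocytes that starts the alternative complement pathway. The gene lies at chr10:79890853-79892655 (+), but the locus that the deposited table gives for it is 672333 bases long and overlaps 45 other genes, so its count is uncertain. Cfd had 46, 28 and 134 fragments in KO, against 19, 13 and 41 in WT. In CPM this was 2.62, 1.86 and 7.22 in KO and 0.943, 0.617 and 2.66 in WT. KO library 2 was 2.72 times the next library, WT library 2, which was level with KO library 0 within counting error.

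The 4 remaining genes differed in pattern. Fabp4 encodes the fatty acid binding protein of adipocytes, macrophages and capillary endothelium, and lies at chr3:10204088-10208576 (-). It had 702, 564 and 898 fragments in KO, against 705, 580 and 463 in WT. Scaled to CPM, the KO values of 40.0, 37.5 and 48.4 all lay above the WT values of 35.0, 27.5 and 30.0. The step between the groups was small: the lowest KO library and the highest WT library had overlapping counting intervals, from 34.5 to 40.7 and from 32.4 to 37.7 CPM.

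Car3 encodes carbonic anhydrase III, a cytosolic enzyme abundant in adipocytes and slow skeletal muscle, and lies at chr3:14863512-14872523 (+). It had 537, 480 and 777 fragments in KO, against 522, 496 and 402 in WT. The KO values were 30.6, 31.9 and 41.9 CPM and the WT values 25.9, 23.5 and 26.1 CPM, again without overlap. Car3 and Fabp4 lie on the same chromosome and had the most similar profiles of any pair among the 10 genes: after each was centred on its own mean, their log2 values differed by a root mean square of 0.0907 over the 6 libraries.

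Plin4, a perilipin that coats small new droplets in white adipocytes, lies at chr17:56100591-56109803 (-), and its deposited locus overlaps 1 other gene. It had 7.29, 6.31 and 8.95 CPM in KO, against 6.60, 7.83 and 7.85 CPM in WT. The groups overlapped, and KO library 2 was only 1.14 times the next library, within the counting intervals of both.

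Lpl encodes lipoprotein lipase, which releases fatty acids from circulating lipoproteins at the capillary wall. The gene lies at chr8:68880491-68907448 (+) and was the most abundant of the 10. It had 457, 671 and 559 CPM in KO, against 339, 287 and 766 CPM in WT. WT library 2 was the highest and KO library 2 the third, and Lpl was the 1 gene of the 10 for which KO library 2 was not the highest. The WT libraries alone spanned more than the whole KO range.

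Over all tested genes, KO library 2 was the highest library in 10.7% of 14354 genes, against 9 of the 10 fat genes and 8 of the 9 that were tested. It stood at 1.5 times the next library or more in 0.146% of genes, which is 21 genes, against 5 of the 9 tested fat genes. By this ratio the 5 highest of all tested genes were Ucp1, Cfd, Cidec, Plin1 and Adipoq. The next was Thrsp, a regulator of lipid synthesis in fat and liver, at 2.32 times, followed by the hexokinase gene Hk2 at 2.17 times, which was named after its value was seen. Since the list was chosen with these values known, the counts describe KO library 2 and are not a test.

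**Figure D2:**
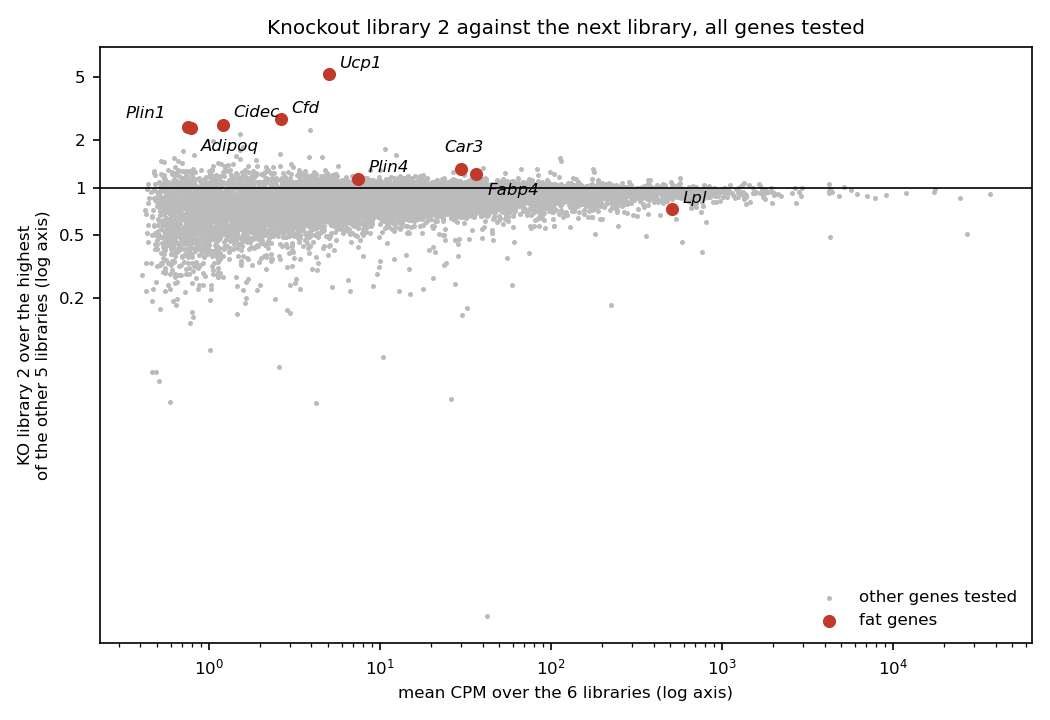
CPM in KO library 2 over the highest of the other 5 libraries (log axis) against mean CPM (log axis) for 14354 tested genes, with the 9 tested fat genes in red. Ucp1, at 5.24, and Cfd, Cidec, Plin1 and Adipoq, between 2.40 and 2.72, are the 5 highest points, whereas Lpl lies at 0.729.

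The sum of the 6 genes that stood out most in KO library 2 (Ucp1, Cidea, Adipoq, Plin1, Cfd and Cidec) was 7.0, 4.45 and 39.9 CPM in KO, against 7.49, 1.85 and 8.56 CPM in WT. Set apart from KO library 2, the other two KO libraries lay inside the WT range. The sum of Fabp4, Car3, Plin4 and Lpl was 534, 747 and 658 CPM in KO and 406, 346 and 830 CPM in WT, and there WT library 2 was the highest. In FPKM, where Lpl weighs less, the sum was 195, 247 and 244 in KO and 161, 130 and 242 in WT, and KO library 1 was the highest. The fragments that KO library 2 held above the median of the other 5 differed in size between genes. They came to 102 CPM for Lpl, where WT library 2 was higher still, 19.4 for Ucp1, 15.8 for Car3 and 13.4 for Fabp4. Those of Cfd and Cidea were 5.36 and 3.76 CPM, and those of Cidec, Plin4, Plin1 and Adipoq lay between 1.45 and 2.44 CPM.

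The share of Ucp1 beside other fat genes also varied between libraries. Ucp1 made up 65.9%, 84.2% and 91.1% of the Ucp1 and Adipoq fragments in KO, against 87.1%, 66.7% and 71.1% in WT. The exact Clopper-Pearson 95% intervals, for counting error only, were 88.0% to 93.7% in KO library 2 and 78.5% to 93.2% in WT library 0, which overlap. In KO library 0 the interval was 50.1% to 79.5%, below that of KO library 2. In WT library 2 it was 55.7% to 83.6%, also below that of KO library 2. Both intervals overlapped that of WT library 0 at its lower end. Overlap of separate intervals does not show that shares are alike, and the difference of WT library 0 from KO library 0 and WT library 2 was not tested. KO library 1 had only 19 fragments of both genes together and WT library 1 only 12. Beside Cidea, the other brown fat gene of the list, Ucp1 made up 76.3%, 88.9% and 83.2% of the fragments in KO, against 89.0%, 61.5% and 71.1% in WT. The interval of this share was 80.7% to 94.6% in WT library 0 and 79.5% to 86.5% in KO library 2, which overlap. WT library 0 came after KO library 2 for Ucp1. For Cidea, with 10 fragments, it lay below WT library 2 and KO library 0 in CPM, but within the counting intervals of both. Counts this low do not settle whether the brown fat genes stood high together in WT library 0.

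Set against Cfd, the intervals of KO library 2 and WT library 0 lay apart from the rest, which those beside Adipoq and Cidea did not. Ucp1 made up 38.7%, 36.4% and 74.5% of the Ucp1 and Cfd fragments in KO, against 81.0%, 38.1% and 43.8% in WT. KO library 2, with an interval of 70.5% to 78.2%, and WT library 0, with 71.9% to 88.2%, lay above the intervals of the other 4 libraries. This split rests on 19 Cfd fragments in WT library 0, and the count of Cfd is uncertain, as given above. Between Adipoq and Plin1 no such split was seen. Adipoq made up 68.2%, 33.3% and 50.0% of the Adipoq and Plin1 fragments in KO, against 44.4%, 66.7% and 50.0% in WT, with overlapping intervals throughout. WT library 0 also had the highest summed level of 11 macrophage genes, 251 CPM, where the KO libraries had 107, 142 and 131 and the other WT libraries 130 and 127. Whether macrophage RNA has a part in the Ucp1 value of that library was not tested.

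The study compares knockout with wild-type kidneys. In edgeR's quasi-likelihood F test over all 6 libraries, 0 of 14354 genes (0%) passed a Benjamini-Hochberg adjusted p of 0.05, and so none of the 9 tested fat genes did. At an unadjusted p under 0.05 the test gave 1193 genes, and DESeq2 called 11 genes, none of them among the 10. Unadjusted p under 0.05 with a higher level in KO was found for 3.17% of all genes and for 3 of the 9 fat genes, Fabp4, Car3 and Cfd. Groups that did not overlap, with KO higher, were found for 7.12% of genes and for 2 of the 9, Fabp4 and Car3. The median log2 fold change of the 9 was 0.85, against -0.0066 over all genes.

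Ucp1 averaged 7.93 ± 11.4 CPM in KO and 2.16 ± 1.82 CPM in WT (SD, n = 3 each). The log2 fold change from edgeR was 1.91 ± 1.02 (SE), with a 95% interval from -0.37 to 4.19 and a Benjamini-Hochberg adjusted p of 0.610. Without KO library 2 the other KO libraries averaged 1.36 CPM and the fitted log2 fold change was -0.65 ± 0.74, so the direction turned with 1 library. In the authors' deposited table, Ucp1 had a log2 fold change of 1.87 with a q-value of 0.0106 by Cuffdiff. It was among the 22 genes (0.164% of 13404 that the authors tested) with a q-value under 0.05 and a higher level in KO in the authors' deposited table, and Fabp4 was the only other of the 10. The difference between the call there and its absence in edgeR was not tested for a cause.

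Fabp4 averaged 42.0 ± 5.73 CPM in KO and 30.8 ± 3.80 CPM in WT (SD, n = 3 each). Its log2 fold change was 0.45 ± 0.12 (SE; 95% interval 0.18 to 0.71), with an unadjusted p of 0.00423 and a Benjamini-Hochberg adjusted p of 0.599 by edgeR. Without KO library 2 it was 0.33 ± 0.11, and the 2 remaining KO libraries still lay above all WT libraries. In the authors' deposited table Fabp4 had a log2 fold change of 0.50 and a q-value of 0.0106.

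Car3 averaged 34.8 ± 6.19 CPM in KO and 25.2 ± 1.43 CPM in WT (SD, n = 3 each), and its log2 fold change was 0.47 ± 0.12 (SE; 95% interval 0.20 to 0.74; edgeR, Benjamini-Hochberg adjusted p of 0.599). Without KO library 2 it was 0.31 ± 0.093, also with no overlap between the groups. With KO library 2 left out, 12.5% of all genes were higher in KO with no overlap, so 2 such genes of 9 say little about the list. In the authors' deposited table Car3 had a q-value of 0.0597. Fabp4 and Car3 were the genes of the list whose difference between the groups depended least on 1 library.

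For the other tested genes the interval of the difference held 0, except for Cfd. Cfd averaged 3.90 ± 2.90 CPM in KO and 1.41 ± 1.10 CPM in WT (SD, n = 3 each), with a log2 fold change of 1.56 ± 0.59 (SE; 95% interval 0.24 to 2.88; edgeR, Benjamini-Hochberg adjusted p of 0.599), and 0.74 ± 0.54 without KO library 2. The count of Cfd is uncertain, as given above, and in the authors' deposited table its q-value was 0.999. DESeq2 gave it an unadjusted p of 0.0734 and no adjusted p. The fitted log2 fold changes of Cidec, Adipoq and Plin1 were 1.19, 1.03 and 0.85, and without KO library 2 they were 0.25, 0.06 and -0.43. Plin4 had 0.03 ± 0.15 and Lpl 0.28 ± 0.31 (SE), and Lpl kept 0.29 without KO library 2. Of the 9 genes, 9 had a higher fitted level in KO over all libraries and 6 without KO library 2, where the median log2 fold change was 0.25. These values do not show that the groups are alike: the intervals for Ucp1, Adipoq, Plin1 and Cidec reach past a log2 fold change of 1.

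**Figure D3:**
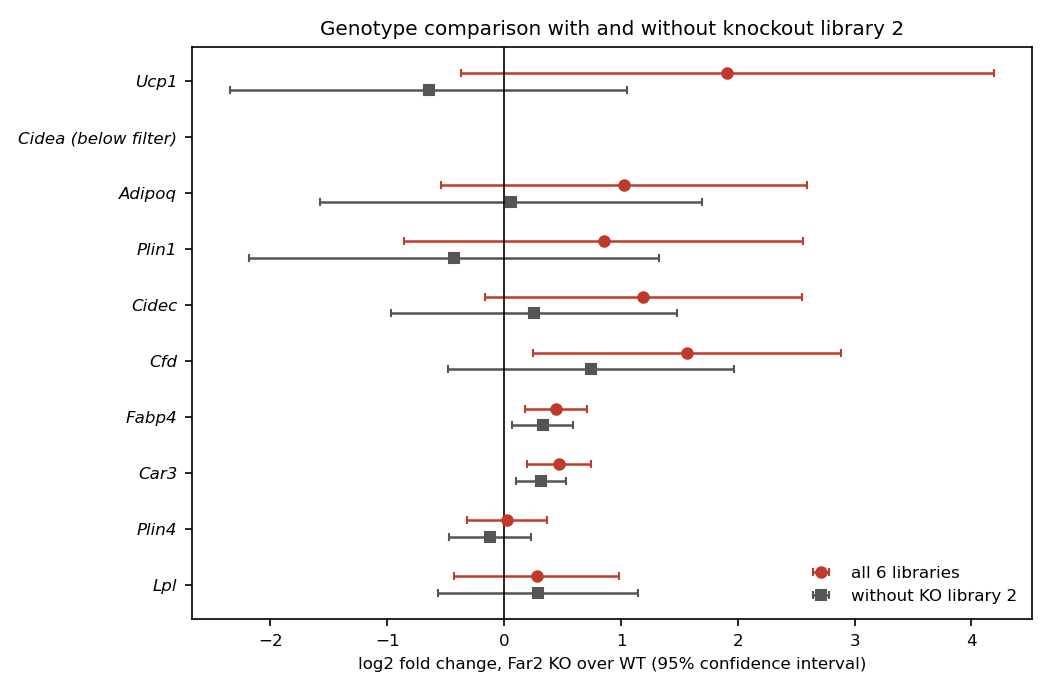
Log2 fold change of KO over WT with its 95% confidence interval from edgeR for the 9 tested fat genes, over all 6 libraries (red circles) and without KO library 2 (grey squares). Ucp1 moves from 1.91 to -0.65 and Plin1 from 0.85 to -0.43 when the library is left out, while Fabp4 (0.45 and 0.33) and Car3 (0.47 and 0.31) stay above 0.

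Other fat genes were followed through lists of 22 white and 20 brown adipocyte genes. Of these 42 genes, 28 passed the filter and 0 passed the adjusted threshold in edgeR. At an unadjusted p under 0.05, 1 of the 28 was higher in KO, against 3.17% of all genes. Their median log2 fold change was 0.09, and 0.06 without KO library 2. Among the 28, KO library 2 was the highest in 10 and stood at 1.5 times the next library in 2, Thrsp and Tusc5, a gene of adipocyte glucose uptake. Thrsp had 2.50, 3.12 and 8.79 CPM in KO, against 2.58, 3.79 and 2.73 CPM in WT, and Tusc5 had 1.54, 0.864 and 2.32 CPM in KO, against 1.49, 1.42 and 1.49 CPM in WT.

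Cd36, Gpd1, Fabp3 and Dgat2, which are abundant genes of the 2 lists, did not single out that library. Gyk and Pank1, the most abundant brown genes, averaged 250.7 and 132.29 FPKM over the 6 libraries, against 71.168 FPKM for Fabp3, the next. They are not given by library here, but the brown sum below includes them. The white genes summed to 1461 to 1712 CPM in KO, highest in KO library 2, and 1330 to 1575 CPM in WT. The brown genes summed to 1547 to 1585 CPM in KO, highest in KO library 1, and 1214 to 1532 CPM in WT. Cd36, a fatty acid transporter, had 529, 779 and 782 CPM in KO, against 647, 440 and 702 CPM in WT. Gpd1, which makes glycerol 3-phosphate, had 395, 379 and 389 CPM in KO, against 372, 353 and 361 CPM in WT. Fabp3, the heart-type fatty acid binding protein, had 48.6, 48.3 and 39.7 CPM in KO, against 44.5, 47.6 and 47.4 CPM in WT, so that KO library 2 was the lowest. Dgat2, the last enzyme of triglyceride synthesis, ran from 164 to 173 CPM in KO and from 158 to 167 CPM in WT.

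The 14 genes of both lists that were below the filter behaved otherwise: KO library 2 was the highest in 12 of them. Cox8b, a subunit of cytochrome c oxidase found in brown fat, heart and muscle, had 0, 2 and 47 fragments in KO, against 9, 2 and 7 in WT. Slc36a2, an amino acid transporter at the surface of brown adipocytes, had 3, 6 and 23 fragments in KO, against 8, 7 and 5 in WT. Named after their values were seen, the leptin gene Lep had 0, 1 and 5 fragments in KO, against 4, 0 and 3 in WT, and the β3 adrenergic receptor gene Adrb3 had 7, 3 and 19 in KO, against 5, 2 and 2 in WT. The 4 untested white genes together had 11, 8 and 47 fragments in KO, against 13, 12 and 10 in WT, and the 10 untested brown genes had 21, 29 and 146 in KO, against 43, 39 and 29 in WT. Among all 2173 genes below the filter with at least 10 fragments in total, KO library 2 was the highest in 13.5%, against 11 of the 12 fat genes of that kind.

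**Figure D4:**
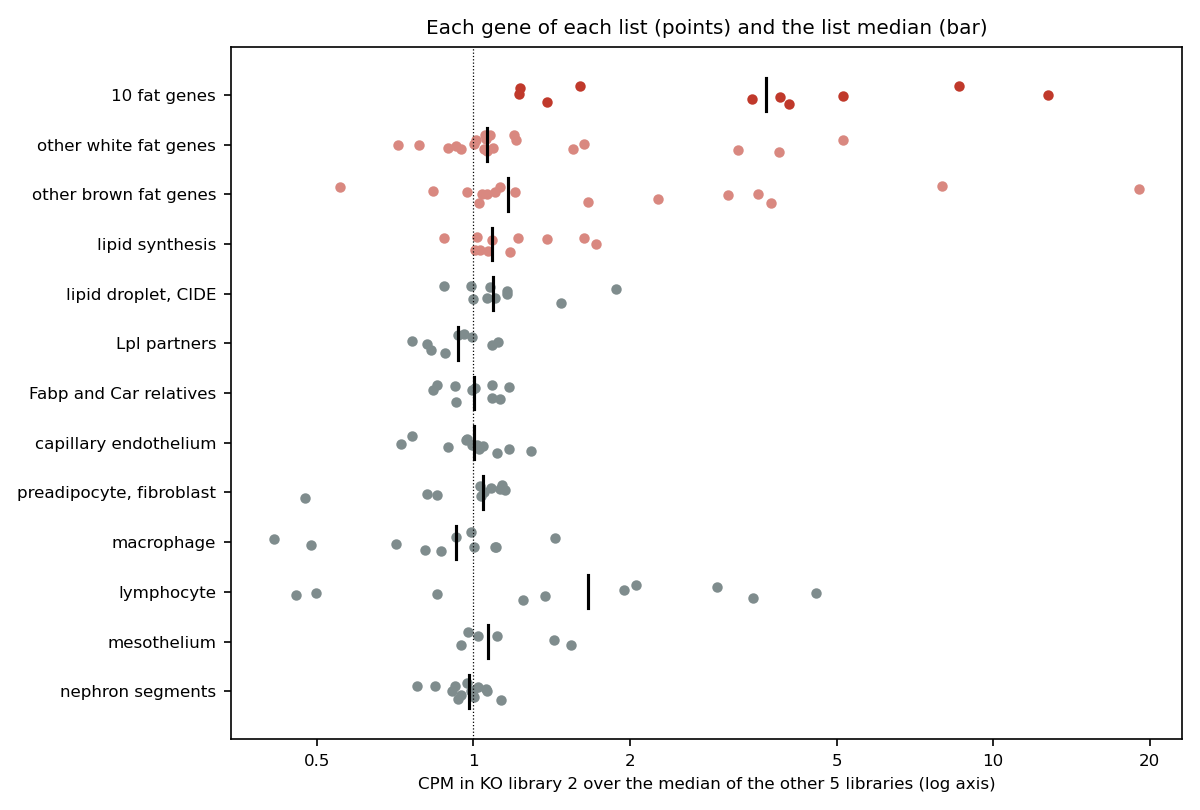
CPM in KO library 2 over the median of the other 5 libraries (log axis), 1 point per gene with at least 20 fragments in total, for the 10 fat genes and 12 lists, with the list median as a bar. The fat genes have a median of 3.66, and the other white and brown fat genes medians of 1.06 and 1.16 with single genes up to 5.14 and 19.1. The lymphocyte genes have a median of 1.66 with single genes up to 4.57. The nephron, endothelial and Lpl partner genes lie between 0.724 and 1.29.

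Genes that work with the 10 were counted next. Of 12 partners of lipoprotein lipase 9 were tested and 0 passed the adjusted threshold in edgeR, with 0 at an unadjusted p under 0.05, and KO library 2 was the highest for none of the 9. Angptl4, a secreted inhibitor of the lipase, had 123, 113 and 88.6 CPM in KO, against 78.8, 107 and 89.1 CPM in WT. Lmf1 and Sel1l, which help the enzyme fold and leave the endoplasmic reticulum, were the other abundant partners. Among 10 further droplet and CIDE family genes, 0 passed the adjusted threshold in edgeR. At an unadjusted p under 0.05, 2 of the 10 were higher in KO, against 3.17% of all genes. Plin2, the perilipin of most cells, had 94.7, 102 and 93.7 CPM in KO, against 94.9, 69.3 and 83.6 CPM in WT. Cideb, the CIDE gene known from liver, had 109, 135 and 126 CPM in KO, against 119, 106 and 122 CPM in WT. The group of common droplet proteins thus did not single out KO library 2, except Pnpla3, a lipase of the droplet, which had 1.42, 1.26 and 2.37 CPM in KO, against 1.04, 1.04 and 1.49 CPM in WT.

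The relatives of Fabp4 and Car3 gave 10 tested genes with 0 past the adjusted threshold in edgeR. At an unadjusted p under 0.05, 1 of the 10 was higher in KO, against 3.17% of all genes. Car2, the main cytosolic carbonic anhydrase of the kidney, had 338, 353 and 300 CPM in KO, against 283, 301 and 255 CPM in WT. Fabp5, also an endothelial gene, had 4.21, 5.18 and 5.71 CPM in KO, against 6.40, 4.89 and 3.57 CPM in WT. The 12 capillary endothelial genes, which bear on Fabp4, summed to 508, 468 and 508 CPM in KO and 477, 525 and 506 CPM in WT, and KO library 2 was the highest for none of the 11 tested. Their sum was highest in WT library 1, where Fabp4 was lowest. The sum of the macrophage genes was highest in WT library 0, which also had the highest Fabp4 of the WT libraries. The part of either cell type in Fabp4 was not tested.

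Lipid synthesis genes, which fat and kidney share, moved partly with KO library 2. The 11 genes summed to 1390, 1473 and 1711 CPM in KO, against 1315, 1330 and 1436 CPM in WT, and KO library 2 was the highest for 5 of them. Fasn, the fatty acid synthase, had 104, 104 and 179 CPM in KO, against 80.1, 100 and 116 CPM in WT. Scd1, the stearoyl-CoA desaturase, had 186, 192 and 253 CPM in KO, against 122, 155 and 150 CPM in WT, with no overlap between the groups. By edgeR 0 of the 11 passed the adjusted threshold, while DESeq2 called Scd1. In edgeR 1 of the 11 was higher in KO at an unadjusted p under 0.05, against 3.17% of all genes.

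The tested genes with the profile most like Adipoq over the 6 libraries, apart from the 10, were Moap1, Ppp1r3b, Klk14, Chrna7 and A230020J21Rik. Their centred log2(CPM + 0.5) values differed from those of Adipoq by a root mean square of 0.226 to 0.375. On this scale Cidec, the nearest gene of the list, differed by 0.270 and Moap1 by 0.226. Adipoq itself ran from 0.190 to 2.05 CPM, so the added 0.5 narrows its profile more than that of the more abundant Moap1. Whether Moap1 stays nearer than Cidec without the added 0.5 was not tested. Moap1 had 4.33, 2.06 and 5.39 CPM in KO, against 2.78, 1.52 and 4.09 CPM in WT. For Ucp1 the nearest were Ccl28, Ms4a1, Hapln1, Hist1h2bg and Hp, at 0.935 to 1.01, and Cidea was nearer at 0.685. Plin1, Cidec and Adipoq, at 0.850 to 0.926, were also nearer than Ccl28. Cfd, at 0.953, and Fabp4, Car3, Plin4 and Lpl, at 1.26 to 1.42, were farther from Ucp1 than Ccl28. Ccl28, a chemokine gene, had 17.9, 37.8 and 76.8 CPM in KO, against 44.9, 7.35 and 57.4 CPM in WT.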

How the data were processed

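Total RNA libraries of the right kidney from 3 Far2 knockout and 3 wild-type mice were made with a stranded, ribosomal-RNA-depleting kit, per the labels' protocols. Tools listed, without roles or order, in the submitters' processing notes are Cufflinks 2.2.1, Cuffdiff, TopHat2 2.0.13, Bowtie2 2.2.3, cutadapt 1.2.1 and SAMtools 1.2, with the build mm10. The sources used here do not give the strand setting, the gene models or how multiply aligned fragments were treated, so overlapping genes are uncertain. Per gene and library, the authors deposited an estimated count (fragments), of which 1.12% are not exact whole numbers (312 genes). The authors deposited FPKM per library, scaled by Cuffdiff, and a comparison table that holds each gene's p-value, q-value and log2 fold change (knockout over wild type), per the file headers. The 6 libraries held 15261362 to 20631158 fragments.

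Estimated counts were rounded to whole numbers, passed through filterByExpr, TMM-scaled and tested in edgeR 4.0.16 (R 4.3.3; quasi-likelihood F test, two-sided, 2 groups, no covariates, Benjamini-Hochberg over 14354 genes, threshold 0.05). CPM used TMM library sizes. The test was tried on simulated data first. DESeq2 1.42.0, limma 3.58.1 on log2(FPKM + 1) and log2(FPKM + 0.1), RLE and upper-quartile scaling, other filters and each library left out were alternatives. The series design text calls the samples biological replicates. The labels do not carry the library numbers, so each library is 1 unnamed mouse and nothing was paired.

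The 10 genes, the 15 companion lists and the tests were chosen with earlier results of these data known. The text names all 10 genes and, of each list, at most the 3 genes with the highest mean FPKM, the 2 with the largest ratio of highest to lowest library among those with 20 fragments in some library, any gene called, and genes at 0 in all libraries. It also names the 5 tested genes nearest to Adipoq and to Ucp1 by root mean square difference of centred log2(CPM + 0.5). Hk2, Lep and Adrb3 fall outside these rules and were named after their values were seen. Gene coordinates come from GENCODE M21 on GRCm38, the assembly also named mm10.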

Additional observations from a re-analysis of the deposited data

How the results depend on the processing

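The number of genes past an adjusted p of 0.05 was 0 by edgeR. It was 1 with no filter, 1 at a threshold of 0.10, 11 by DESeq2, and between 0 and 1 with each library left out (1 without KO library 2 and 1 without WT library 2). Of the companion genes 1 was called by DESeq2 (Scd1). None of the 10 fat genes was called under any of these settings, and the smallest of their adjusted p-values was 0.164. Of 119 fold changes of the fat genes under alternatives, 115 kept their direction and 4 turned, all with a library left out: Ucp1 to -0.65, Plin1 to -0.43 and Plin4 to -0.12 without KO library 2, and Plin4 to -0.05 without WT library 0. With each library left out in turn, the log2 fold change ran from -0.65 to 2.85 for Ucp1, -0.43 to 1.22 for Plin1, -0.12 to 0.13 for Plin4, 0.06 to 1.47 for Adipoq, 0.25 to 1.72 for Cidec, 0.74 to 2.34 for Cfd, 0.03 to 0.85 for Lpl, 0.33 to 0.55 for Fabp4 and 0.31 to 0.56 for Car3. With limma on log2(FPKM + 1), a scale that understates changes of low genes, the log2 fold change was 0.75 for Ucp1, 0.29 for Adipoq, 0.17 for Plin1, 0.36 for Cidec and 1.0 for Cfd, and with log2(FPKM + 0.1) it was 1.08, 0.58, 0.51, 0.86 and 1.47. Beyond the libraries named, the cause was not tested.

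Depth limits Cidea, Adipoq, Plin1 and Cidec, which had from 2 to 20 fragments in each library other than KO library 2; Cidea did not pass the filter of the reported test and the other 3 did not pass that of 1 CPM in 3 libraries. DESeq2 gave 6 of the 10 genes no adjusted p. No paired analysis was possible because the library numbers of the deposited table match no sample label.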

Other observations

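Markers of other tissues near the kidney were followed in the same libraries. The 14 adrenal genes summed to 8.26, 6.18 and 7.82 CPM in KO, against 7.24, 9.34 and 7.72 CPM in WT. Cyp11b1 and Dbh, which make corticosterone in the adrenal cortex and noradrenaline in the medulla, were at 0 in all 6 libraries. The 12 skeletal muscle genes summed to 15.4, 13.6 and 10.9 CPM in KO, against 9.38, 11.3 and 11 CPM in WT, most of it Pvalb, a calcium-binding protein also made by the distal convoluted tubule. Myh4, the fast muscle myosin, was at 0 in all libraries. Neither tissue's sum singled out KO library 2. The sum of the 11 preadipocyte and fibroblast genes was 413, 478 and 520 CPM in KO, against 544, 414 and 502 CPM in WT, with WT library 0 the highest. The 7 mesothelial genes in the table summed to 254, 298 and 271 CPM in KO, against 273, 220 and 241 CPM in WT, and the 6 blood genes in the table to 246, 193 and 195 CPM in KO, against 236, 236 and 169 CPM in WT.

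The sum of the lymphocyte genes was highest in WT library 0 and next in KO library 2, the 2 libraries with the most Ucp1. Their 10 genes summed to 14.7, 21.5 and 31.0 CPM in KO, against 43.4, 22.2 and 21.3 CPM in WT, mostly from Ptprc, the CD45 gene of all white blood cells. Ms4a1, the CD20 gene of B cells, had 0.285, 0.532 and 1.56 CPM in KO, against 1.09, 0.142 and 0.584 CPM in WT. Cd79b, part of the B cell receptor, had 0.512, 0.864 and 1.78 CPM in KO, against 1.74, 0.854 and 1.49 CPM in WT. KO library 2 and WT library 0 were the highest for both B cell genes. The T cell gene Cd3g did not follow, with 0.114, 0.997 and 0.323 CPM in KO, against 1.29, 0.569 and 0.649 CPM in WT. KO library 2 was the highest library for 4 of the 10 genes. Of the 10 genes, 4 were at 2 times the median of the other libraries or more in KO library 2 and the lowest was at 0.455 times, and 0 of the 5 tested passed the adjusted threshold in edgeR, with 0 at an unadjusted p under 0.05. The part of lymphocyte RNA in the fat gene values was not tested.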
